A study of Arabidopsis thaliana with 47 samples.

Results

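The transcripts that changed between 0.5 and 1 h after a shift from dim to brighter light were measured in Arabidopsis thaliana seedlings grown with lincomycin, by setting 3 arrays at 1 h (replicates 1, 2 and 4) against 4 arrays at 0.5 h (replicates 1 to 4). These 7 arrays are part of 47, and the sample labels alone chose them. All seedlings were wild type Col-0, 7 days old, raised on medium with 2% sucrose, and kept for 6 d in blue plus red light of 0.5 µmol m-2 s-1 before they were moved to 60 µmol m-2 s-1 of the same light. Each array held the RNA of 1 pool of 50 to 100 whole seedlings, and the replicates had been grown separately according to the design text. Both groups of the step carried 0.5 mM lincomycin in the medium. The groups used for comparison were the seedlings with lincomycin at 0 h (8 arrays), 4 h (4 arrays) and 24 h (4 arrays), and those without it at 0 h (8 arrays), 0.5 h (4 arrays) and 1 h (4 arrays). In whole seedlings, fewer cells of a type and less RNA per cell cannot be told apart. Because a pool mixes organs, a value is a mean over root, hypocotyl and cotyledon.

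Lincomycin is an antibiotic that blocks translation on plastid ribosomes, so that seedlings raised on it do not build working chloroplasts, and plastids in that state are known to lower the expression of nuclear photosynthesis genes. Blue and red light are read by cryptochromes and phytochromes, which hold back the COP1/SPA ubiquitin ligase and the PIF factors. HY5, a bZIP factor that COP1 otherwise marks for degradation, then accumulates and binds genes of flavonoid synthesis, photoprotection and light signalling, among them the genes of its own negative regulators. PIF factors promote elongation in dim light, partly through auxin genes.

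The 7 arrays resembled each other: rank correlations over all probe sets ranged from 0.952 to 0.97 over their 21 pairs, and those between the times (0.955 to 0.968) lay within this range. No label gives a labelling or scan batch. The log2 signal of the spike-in control Dap was 8.99 to 9.45 on the 7 arrays and 3.01 to 5.02 on the arrays without lincomycin at 0 h (numbers 1 to 4), 0.5 and 1 h, so each step was measured within 1 set of like arrays and the steps with and without lincomycin were not. The median SD between replicates on the log2 scale was 0.231 at 0.5 h and 0.194 at 1 h with lincomycin, against 0.177 and 0.166 without it. Green leaf markers were bright, with a mean log2 signal of 11.04 to 11.23 on the arrays at 0.5 h and 11.14 to 11.35 at 1 h (4 of 8 listed genes had a probe set of their own). The root list (11 genes, 8.65 to 8.91 and 8.58 to 8.75) and the vascular list (8 genes, 8.98 to 9.33 and 9.1 to 9.37) were present at both times. Of 11 seed storage markers 9 lay at or below the first quartile of the arrays, among them CRA1, CRC and OLEO1, and so did 5 of 9 stomatal markers, among them SPCH and MUTE. No gene of these 5 lists was called between 0.5 and 1 h, which in lists of this size is near the 0.884% called over all probe sets. Their medians of the log2 change ran from -0.2 to 0.06, beside -0.04 over all probe sets.

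Between 0.5 and 1 h with lincomycin, 14 of 35 measured light-signalling genes rose, among them HY5, SIG5 and RUP1. Smaller numbers rose of the flavonoid genes (4 of 29), the photoprotection genes (3 of 19) and the clock genes (3 of 23, with GI and ELF4), and 5 of 27 auxin-related and shade growth genes fell. In a stricter fit described next, 4 of the light-signalling, 2 of the clock, 2 of the auxin-related and 0 of the flavonoid and photoprotection genes were called. The lists and their members were chosen with earlier results of these data known. List counts here and below therefore describe the members and are no test of a list. A limma fit of 46 arrays called 201 of 22746 probe sets (0.884%) at an adjusted p under 0.05, of which 142 were higher (0.624%) and 59 lower (0.259%) at 1 h, and 2080 had an unadjusted p under 0.05. The groups of arrays did not overlap for 191 of the 201, beside 6.54% of all probe sets, though the calls rest on these same values. On the log2 scale 67 had changed by more than 1 (44 higher, 23 lower). Most of these 23 falls were of dim probe sets that did not reach the median level of all probe sets. The count of 201 depends on which arrays, and how many, estimate the spread. In a fit of only the 11 early arrays with lincomycin (0 h numbers 1 to 4, 0.5 h and 1 h), 19 probe sets were called (0.0835%), 16 higher (0.0703%) and 3 lower (0.0132%), all of them among the 201. The median spread of these arrays was larger, and fewer arrays estimated it. The fit of 46 arrays pooled this larger spread with that of quieter arrays, so its adjusted p-values for this step may be too small. A fit of the same 46 arrays with a weight per array set called 130. The weight was 0.762 for the early arrays with lincomycin, 1.169 for those without and 1.05 for the later arrays. This setting was unplanned and was added with results already known. How much the smaller number of arrays alone lowered the count was not tested. In a fit of the 7 arrays alone limma called 0, with 1238 at an unadjusted p under 0.05. The 19 genes called in both fits, which were singled out after the values were seen, are therefore described first and in full.

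The 16 rises in both fits were HY5, SIG5, RUP1, BBX18, BBX22, GI, ELF4, ABCI20, ABCI21, SMZ, SDR1, RHA2A, SEP2, ACHT4, AT1G48100 and AT3G57020. Where groups are said to be apart, this describes the values and is no further evidence, because the calls rest on the same values. Groups without overlap were also a condition for ranking among the largest rises, as HY5, SIG5, AT1G48100, ABCI20 and ABCI21 did. Changes below are log2 differences between group means of log2(signal + 1) ± SE from the fit of 46 arrays (n = 3 at 1 h and 4 at 0.5 h), and arrays are given in the order of their replicate numbers.

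HY5 had signals of 342, 305, 270.1 and 330.1 at 0.5 h and of 895, 1176 and 1228 at 1 h. All arrays at 1 h were above all at 0.5 h, and the gene rose by 1.81 ± 0.17, or 3.5-fold (adjusted p = 1e-08 in the fit of 46 arrays and 0.033 in that of the early arrays). It had already been higher at 0.5 h than at 0 h by 1.33 (adjusted p = 2.3e-06), where the 4 early arrays read 166, 151, 103 and 89.4. SIG5, the sigma factor that directs the plastid RNA polymerase to light-dependent promoters and is itself induced by blue light, read 996, 952, 992 and 763 at 0.5 h and 2974, 3159 and 2353 at 1 h. The groups were far apart, and SIG5 rose by 1.61 ± 0.14, or 3.05-fold (adjusted p = 1.1e-09 and 0.019). RUP1, a repressor of the UV-B receptor UVR8 that belongs to the HY5-dependent genes, read 268, 419, 323 and 245 at 0.5 h and 738, 926 and 919 at 1 h. Its rise was 1.48 ± 0.17, or 2.78-fold (adjusted p = 6.3e-07 and 0.048), whereas its value at 0.5 h had been 0.34 above that at 0 h without being called (adjusted p = 0.44).

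The B-box factors BBX18 and BBX22, zinc-finger proteins of light signalling, rose together with these. BBX18 read 526, 463, 436 and 489 at 0.5 h and 954, 1295 and 1099 at 1 h, a rise of 1.21 ± 0.12 (2.32-fold; adjusted p = 2.5e-08 and 0.033). BBX22, which acts with HY5 in seedling development, read 862, 917, 786 and 900.5 at 0.5 h and 1609, 1652 and 1641 at 1 h. The arrays of 1 h were close together here, and the rise was 0.92 ± 0.1 (1.89-fold; adjusted p = 1.5e-07 and 0.048).

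GI and ELF4, components of the circadian clock that act in the evening, were the clock genes called in both fits. GI read 786, 865, 830.2 and 750.2 at 0.5 h and 1920.2, 1912 and 1869 at 1 h, so each group was tight and the distance between them wide. Its rise of 1.24 ± 0.11 (2.35-fold) had adjusted p-values of 2.4e-09 and 0.0063. ELF4 read 878, 829.9, 789 and 876 at 0.5 h and 1585, 1503 and 1724 at 1 h, a rise of 0.93 ± 0.15 (1.9-fold; adjusted p = 0.00012 and 0.033). At 0.5 h neither GI (0.25, adjusted p = 0.35) nor ELF4 (0.33, adjusted p = 0.35) was called against 0 h.

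ABCI21 and ABCI20 encode related ABC-family proteins. ABCI21 read 779.7, 916, 808 and 917 at 0.5 h and 2319, 2463 and 2811 at 1 h, a rise of 1.56 ± 0.13 (2.96-fold; adjusted p = 1.1e-09 and 0.0046). ABCI20 read 1056, 852, 639 and 915 at 0.5 h and 2809, 2075 and 2434 at 1 h, a rise of 1.51 ± 0.14 (2.84-fold; adjusted p = 7.8e-09 and 0.048). Groups of both genes were clear of each other, which their ranking among the largest rises required. ACHT4, an atypical thioredoxin of the chloroplast, read 1945, 1699, 1793 and 1603 at 0.5 h and 3169, 3174 and 3072 at 1 h, a rise of 0.84 ± 0.12 (1.79-fold). SEP2, a stress-enhanced relative of the light-harvesting proteins, read 853, 803, 788 and 722 and then 1275, 1362 and 1404, a rise of 0.77 ± 0.1 (1.7-fold). Both products are imported into the plastid, and both had an adjusted p of 0.048 in the fit of the early arrays.

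The remaining 5 rises in both fits have different roles. SMZ, an AP2-type repressor of flowering, read 323, 461, 311 and 368 at 0.5 h and 772, 857 and 872 at 1 h, a rise of 1.2 ± 0.14. RHA2A, a RING ubiquitin ligase of abscisic acid signalling, read 1594, 1759, 1994 and 1895 and then 3031, 3322 and 3889, a rise of 0.91 ± 0.13. SDR1, a short-chain dehydrogenase, read 494, 597, 711 and 594 and then 1245, 1308 and 1245, a rise of 1.09 ± 0.17. No array at 0.5 h reached the arrays at 1 h for any of these genes. AT1G48100 read 161, 283, 264 and 169 at 0.5 h and 763, 694 and 646 at 1 h, a rise of 1.71 ± 0.21. AT3G57020 read 1705, 1332, 1404 and 1096 at 0.5 h and 4246, 4147 and 3229.6 at 1 h, a rise of 1.49 ± 0.16. The groups were again apart, and the adjusted p-values of these 5 genes in the fit of the early arrays were 0.033 to 0.048.

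**Figure D1:**
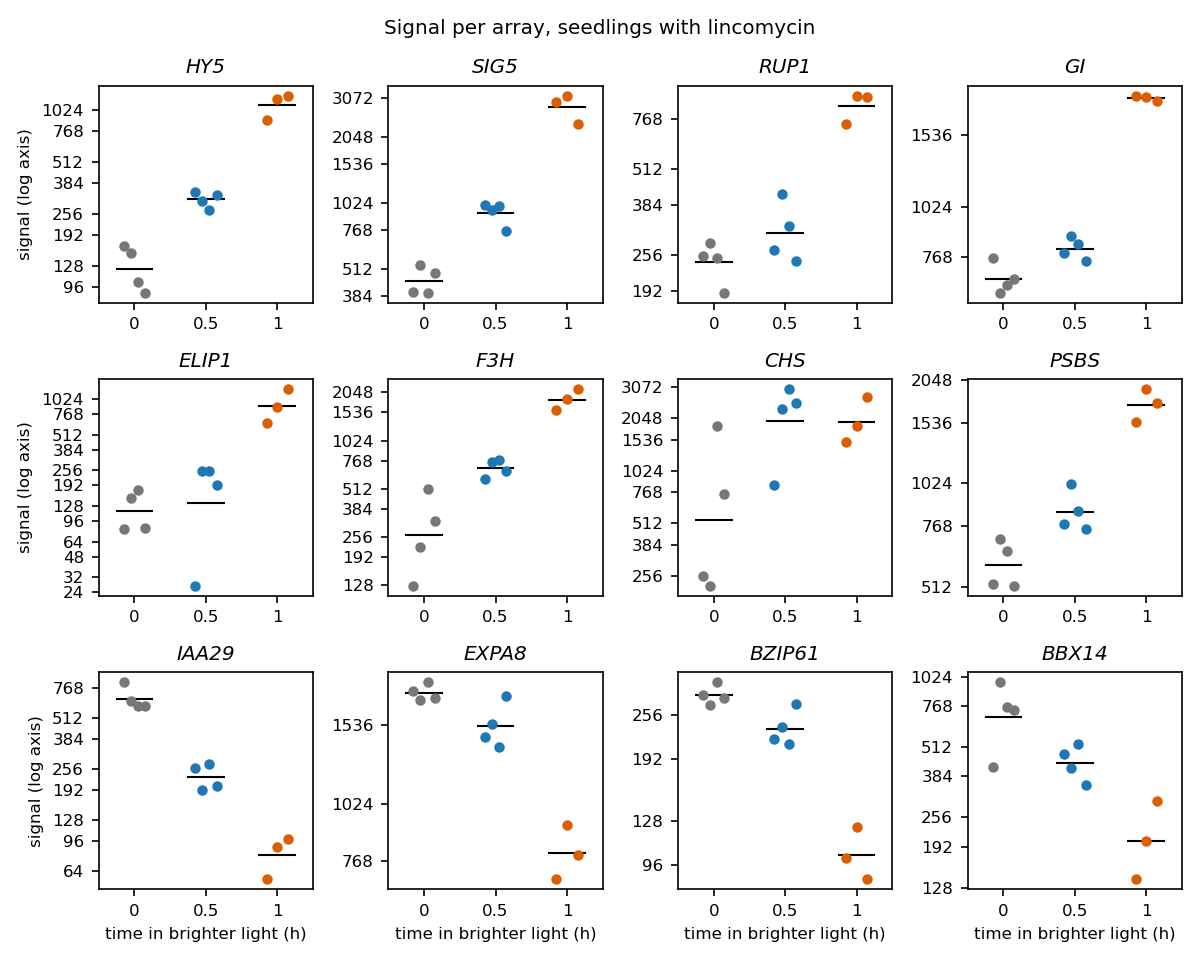
Signal of 12 genes on each array of seedlings with lincomycin (log axis) at 0 h (numbers 1 to 4, grey), 0.5 h (4 arrays, blue) and 1 h (3 arrays, orange); black lines are group means of log2(signal + 1). HY5, SIG5 and F3H climbed at each time, GI and RUP1 stood well above 0.5 h only at 1 h, CHS overlapped between 0.5 and 1 h, and the genes of the bottom row fell, IAA29 from 259, 191, 274 and 203 at 0.5 h to 57, 88.7 and 99 at 1 h.

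Beyond these genes, the largest rises under the rule for named genes were those of ELIP1, GA2OX1, FADA, AT3G52740 and LEA4-5, none of which was called in the fit of the early arrays (adjusted p = 0.14 to 0.71). ELIP1, an early light-induced protein that binds chlorophyll under strong light, read 27.1, 253, 251 and 193 at 0.5 h and 639, 882 and 1243 at 1 h. Replicate 1 at 0.5 h was far below the other arrays, and the rise of 2.7 ± 0.47 (adjusted p = 0.00057) became 1.94 ± 0.36 without it (adjusted p = 0.0013). GA2OX1, which inactivates gibberellins, read 61.3, 38.3, 76.7 and 41 at 0.5 h and 256, 352 and 318 at 1 h. FADA, a fatty acid desaturase of the plastid, read 41.5, 31.3, 55.6 and 86 at 0.5 h and 264, 422 and 223 at 1 h. The mean of both genes at 0.5 h lay at or below the first quartile of the arrays, so their rises were at least 2.16 and at least 2.04 on the log2 scale (adjusted p = 3.7e-05 and 0.00022). AT3G52740 read 58.9, 78.4, 37.7 and 137 and then 474, 351 and 282, a rise of 2.35 ± 0.38. LEA4-5, a late embryogenesis abundant protein, read 386, 205, 117 and 43.3 at 0.5 h and 540.1, 666 and 396 at 1 h, a rise of 1.87 ± 0.4 (adjusted p = 0.0086). Its arrays at 0.5 h were widely spread and its call was lost without replicate 4 at 0.5 h (adjusted p = 0.065) or replicate 2 at 1 h (adjusted p = 0.087). UGT84A2, a glucosyltransferase of sinapate, read 376, 637, 770.4 and 631 and then 1498, 1743 and 2195, a rise of 1.61 ± 0.19. AT3G56290 read 539, 605, 594 and 503 and then 1836, 1838 and 1698, a rise of 1.68 ± 0.18 with an adjusted p of 0.054 in the fit of the early arrays.

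Of the photoreceptors, light-signalling factors and photolyases, 14 of 35 measured genes were called higher and 0 lower (background 0.624% and 0.259%), with a median change of 0.42, beside -0.04 over all probe sets, and 4 of them were called in both fits. Besides HY5, SIG5, RUP1 and BBX22 these were RUP2, HYH, CGA1, PHR1, CRY3, SPA4, SPA1, GNC, BBX25 and COL1. HYH, the close homologue of HY5, read 234, 253, 212 and 205 at 0.5 h and 511, 622 and 663 at 1 h, a rise of 1.4 ± 0.15. RUP2, the partner of RUP1, read 209, 319, 284 and 303 and then 597, 818 and 838, a rise of 1.43 ± 0.2. Both genes had groups that did not overlap and fell short of the threshold in the fit of the early arrays (adjusted p = 0.054 and 0.082). CGA1 and GNC, paired GATA factors that promote greening, rose by 1.37 ± 0.2 and 0.8 ± 0.15. PHR1, the photolyase that repairs cyclobutane pyrimidine dimers, rose by 1.24 ± 0.25, and CRY3, a cryptochrome of the organelles with photolyase activity, rose by 1.2 ± 0.23. SPA4 (0.9 ± 0.19) and SPA1 (0.87 ± 0.2), subunits of the COP1/SPA ligase, also rose. BBX24, a B-box antagonist of HY5, read 4883, 5070.4, 6670.3 and 5675 at 0.5 h and 7152, 6916 and 6772 at 1 h, a difference of 0.33 ± 0.09 that was not called (adjusted p = 0.086). BBX29 had the largest difference among the members not called (1.14 ± 0.36, adjusted p = 0.17), with 159.8 as its lowest array at 1 h and 172 as its highest at 0.5 h.

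Of the B-box family 4 of 24 measured genes were called higher and 2 lower (background 0.624% and 0.259%). The median was 0.06, beside -0.04 over all probe sets. The rises were BBX18, BBX22, BBX25 (0.7 ± 0.11) and COL1 (0.6 ± 0.15, adjusted p = 0.048). BBX14 fell, from 481, 416, 528 and 354 at 0.5 h to 139, 203 and 299.7 at 1 h, by 1.11 on the log2 scale (SE 0.19, adjusted p = 0.00041). CO, the factor that induces flowering in long days, was dim at both times, with 109, 30.7, 49.7 and 74.2 at 0.5 h and 24, 28.3 and 8.4 at 1 h. It was called lower at an adjusted p of 0.048, which became 0.057 to 0.37 without replicate 1, 3 or 4 at 0.5 h or 1 or 4 at 1 h. Because its mean at 1 h was at or below the first quartile the fall is only bounded, at least 0.03 on the log2 scale.

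Flavonoid synthesis and its regulators had 4 of 29 genes called higher and 0 lower (background 0.624% and 0.259%), none of them in both fits. Their median was 0.22, beside -0.04 over all probe sets. F3H, flavanone 3-hydroxylase, read 592, 751, 774 and 666 at 0.5 h and 1586, 1857 and 2149 at 1 h, a rise of 1.42 ± 0.24 (adjusted p = 0.00034). MYB12, a MYB activator of flavonol genes, read 120.1, 70.6, 116 and 127 and then 296, 255 and 233, a rise of 1.29 ± 0.22 (adjusted p = 0.00047). It was the single called gene among 122 measured MYB factors, a share near the 0.884% of all probe sets called. UGT78D2, a flavonoid 3-O-glucosyltransferase, read 473, 785, 518 and 717 and then 1068, 1322 and 1569.7, a rise of 1.1 ± 0.14, and the listed gene AT1G06000 rose by 0.85 ± 0.2. CHS, the enzyme at the entry to the pathway, was not called with them, and read 847, 2309, 3006 and 2515 at 0.5 h and 1493, 1849.8 and 2697 at 1 h. These groups overlapped and differed by -0.01 ± 0.49 (adjusted p = 1.0), while CHS at 0.5 h had been above 0 h by 1.88 (adjusted p = 0.031) with early 0 h arrays at 256, 223, 1847 and 748. The spread between replicates was larger for CHS than for F3H, whose value at 0.5 h was 1.39 above 0 h (adjusted p = 0.00023). TT8, a bHLH regulator of anthocyanin genes, stayed near the floor, between 11.4 and 52 on the 7 arrays, and was not called (adjusted p = 0.36).

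Photoprotection and antioxidant genes had 3 of 19 called higher and 0 lower (background 0.624% and 0.259%), none in both fits. Their median was 0.13, beside -0.04 over all probe sets. Besides ELIP1 these were OHP, an ELIP-related one-helix protein, and VTC2, which catalyses a committed step of ascorbate synthesis. VTC2 read 2201, 2314, 2247 and 2198 at 0.5 h and 3319, 3689 and 3353 at 1 h. Both groups were tight, and the rise was 0.62 ± 0.09 (1.54-fold; adjusted p = 3.3e-05). OHP read 636, 617, 575 and 462 and then 715, 967 and 997, a rise of 0.64 ± 0.15 (adjusted p = 0.025) whose call was lost without replicate 4 at 0.5 h or replicate 2 or 4 at 1 h (adjusted p = 0.13 to 0.17). ELIP2, the near relative of ELIP1, read 221, 239, 123 and 101 at 0.5 h and 395, 350.2 and 318 at 1 h. These groups did not overlap, and the difference of 1.14 ± 0.3 missed the threshold (adjusted p = 0.065).

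Nuclear genes of the photosynthetic machinery were read against the 0.624% of all probe sets that were called higher. Photosystem and electron transport genes had 2 of 29 called higher (median 0.08), chlorophyll and haem synthesis 1 of 29 (median 0.11), carotenoid synthesis 1 of 14 (median 0.07) and the light-harvesting antenna 0 of 13 (median 0.08), with 0 lower in each of these lists. PSBS, the protein that triggers the dissipation of excess light energy, read 779, 1017, 849 and 755 at 0.5 h and 1543, 1926 and 1755 at 1 h, a rise of 1.04 ± 0.13 (2.05-fold; adjusted p = 1.9e-06 and, in the fit of the early arrays, 0.067). PSAD1, a subunit of photosystem I, rose by 0.4 ± 0.09 (adjusted p = 0.023, and 0.05 to 0.27 without replicate 3 or 4 at 0.5 h or 2 at 1 h). GUN4, an activator of magnesium chelatase, read 1043, 746, 782 and 896 and then 1215, 1365 and 1413, a rise of 0.63 ± 0.13 (adjusted p = 0.0045). BCH1, a beta-carotene hydroxylase that leads towards the xanthophylls, read 609, 482, 548 and 479 and then 903, 886 and 863, a rise of 0.75 ± 0.11 (adjusted p = 3.6e-05). RCA, the activase of Rubisco and a green leaf marker, read 6369.8, 5168, 6695 and 5727 and then 6605, 7169.5 and 6372, with overlapping groups. Of the genes encoded in the plastid itself 0 of 71 were called (median -0.07), and of the mitochondrial genome 0 of 28 (median -0.15). With 0.884% of all probe sets called, these counts of 0 are near the background.

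Outside the lists and the rule for named genes, 8 further genes are named from the 142 rises, picked out after their values were seen. They are single examples and no group, since genes of like function that were not called were not counted. The thylakoid FtsH proteases remove damaged D1 protein, and their genes VAR1, FTSH1 and FTSH8 rose by 0.86 ± 0.09, 0.79 ± 0.09 and 0.77 ± 0.16 on the log2 scale. HCF173, which is needed for translation of the plastid psbA mRNA, rose by 0.8 ± 0.13. PSB28, an assembly protein of photosystem II, rose by 0.7 ± 0.14, and OHP2, the partner of OHP, by 0.6 ± 0.11. DDB2, a protein that recognises UV-damaged DNA, rose by 1.15 ± 0.25, and FAH1, ferulate 5-hydroxylase on the route to sinapate, by 0.81 ± 0.15. None of these 8 genes was called in the fit of the early arrays (adjusted p = 0.082 to 0.7).

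The circadian clock and its outputs had 3 of 23 genes called higher and 0 lower (background 0.624% and 0.259%). Of the 23 changes 20 lay above 0, beside 43.0% of all probe sets. LNK1, a transcriptional coactivator of the clock, read 598, 715, 704 and 752 at 0.5 h and 893, 1029 and 1193 at 1 h, a rise of 0.58 ± 0.13 (adjusted p = 0.02) that was not called without replicate 1 at 0.5 h or replicate 2 or 4 at 1 h (adjusted p = 0.074 to 0.18). The morning genes CCA1 and LHY were not called. CCA1 differed by 0.4 ± 0.12 without overlap of the groups (adjusted p = 0.13), and LHY by -0.27 ± 0.15 with overlapping groups (adjusted p = 0.62).

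Cold, drought and abscisic acid genes had 2 of 13 called higher and 0 lower (background 0.624% and 0.259%), none of them in both fits. Their median was 0.3, and 12 of 13 changes lay above 0, beside 43.0% of all probe sets. COR15B, a stromal protein of cold-treated leaves, read 317, 259.7, 291 and 319 and then 639, 643 and 468, a rise of 0.96 ± 0.18 (adjusted p = 0.0017), and LTI30, a dehydrin, rose by 0.6 ± 0.13 (adjusted p = 0.014, and 0.053 to 0.093 without replicate 3 or 4 at 0.5 h or 2 or 4 at 1 h). CBF2, a transcription factor upstream of such genes, was not called (-0.41 ± 0.22, adjusted p = 0.6), although it had been higher at 0.5 h than at 0 h by 0.96 (adjusted p = 0.0072). Its arrays at 1 h (326, 307 and 210.2) overlapped those at 0.5 h (373, 529, 282 and 325).

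**Figure D2:**
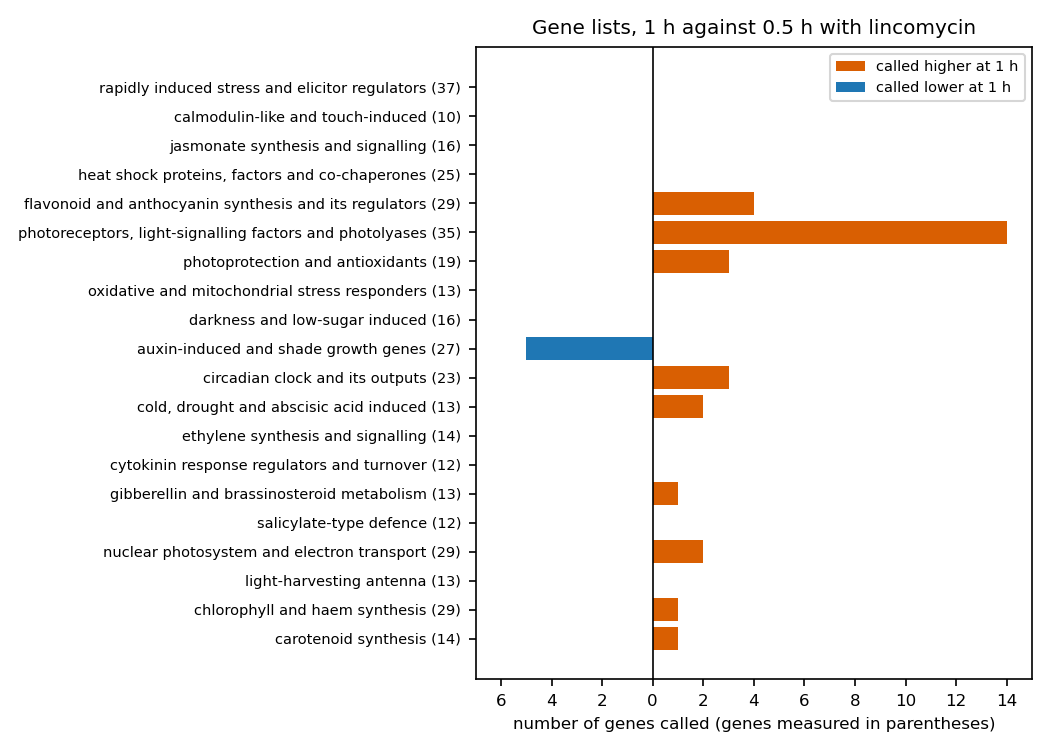
Number of genes called higher (orange, to the right) and lower (blue, to the left) at 1 h than at 0.5 h with lincomycin in 20 gene lists, with the number of genes measured in parentheses. The light-signalling list had 14 of 35 genes higher, the auxin and shade growth list 5 of 27 lower, and 10 lists had 0 called. Over all probe sets 0.624% were called higher and 0.259% lower, so a 0 in lists of this size is near the background.

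The falls of the step were fewer. The 3 falls in both fits were EXPA8, GH3.5 and BZIP61. EXPA8, an alpha expansin that loosens cell walls, read 1441, 1545, 1370 and 1778 at 0.5 h and 698, 921 and 789.5 at 1 h, and fell by 0.94 on the log2 scale (SE 0.13, 1.91-fold; adjusted p = 1.2e-05 and 0.048). GH3.5, which joins auxin to amino acids, read 1701, 1673, 1793 and 1575 and then 979.9, 1056 and 969.6, and fell by 0.75 on the log2 scale (SE 0.1, 1.68-fold; adjusted p = 1.9e-05 and 0.038). In both genes the highest array at 1 h was far below the lowest at 0.5 h. BZIP61, a bZIP factor, read 218, 236, 211 and 275 and then 100.3, 123 and 87.5, and fell by 1.18 on the log2 scale (SE 0.18, 2.26-fold; adjusted p = 8.6e-05 and 0.033).

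Auxin-induced and shade growth genes had 5 of 27 called lower and 0 higher (background 0.259% and 0.624%), 2 of the 5 in both fits. The median was -0.14, beside -0.04 over all probe sets. Besides EXPA8 and GH3.5 the genes called lower were IAA29, HAT3 and PRE1. IAA29, an Aux/IAA repressor that is high in shade and dim light, read 829, 645, 604 and 603 on the early arrays at 0 h, 259, 191, 274 and 203 at 0.5 h and 57, 88.7 and 99 at 1 h. It thus fell at each time, in the step by 1.52 on the log2 scale (SE 0.3, adjusted p = 0.0036 and 0.051). IAA29 was the single called gene of 30 measured Aux/IAA genes, beside 0.884% of all probe sets called. HAT3, a homeodomain factor of the shade response, read 407, 337, 323 and 423 and then 188, 246 and 161, and fell by 0.92 on the log2 scale (adjusted p = 0.03). PRE1, a small bHLH protein that promotes elongation, fell by 0.65 on the log2 scale (adjusted p = 0.021). The call of IAA29 was lost without replicate 1 at 1 h (adjusted p = 0.062). That of HAT3 was lost without replicate 1 or 4 at either time (adjusted p = 0.073 to 0.2). EXPA8, GH3.5 and BZIP61 were called whichever of the 7 arrays was left out (highest adjusted p = 0.00048, 0.0005 and 0.0031).

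The other large falls under the rule for named genes were those of AT5G02760, TPPH, CYCP4;1, LNG2, LPA66 and AT5G27410, between -1.06 and -0.75 on the log2 scale. None of these was called in the fit of the early arrays (adjusted p = 0.067 to 0.65). Larger falls, down to -2.68 for AGL86, were called for probe sets that did not reach the median level, which the rule leaves out. LNG2, which promotes the elongation of cells, read 569, 627, 774 and 829.5 at 0.5 h and 316, 363 and 447 at 1 h. TPPH, a trehalose phosphate phosphatase, read 268, 189, 228 and 248 and then 132, 109 and 121. CYCP4;1, a P-type cyclin, read 331, 236, 246 and 337 and then 145, 177 and 135. Groups without overlap were a condition for naming LNG2, TPPH and CYCP4;1 here. CYCP4;1 was not called without replicate 1 or 4 at 0.5 h or without any 1 array of 1 h (adjusted p = 0.063 to 0.2). LPA66, a pentatricopeptide protein needed for editing of a plastid photosystem transcript, read 223, 235, 224 and 258 and then 147, 130.3 and 128. The calls of LPA66, AT5G02760 and AT5G27410 were each lost without replicate 4 of either time and without at least 1 further array (highest adjusted p = 0.11, 0.29 and 0.13). Among 56 SAUR growth genes 2 were called lower and 0 higher (background 0.259% and 0.624%). These were AT3G61900 (by 0.99 on the log2 scale, adjusted p = 0.0045, and 0.07 without replicate 2 at 1 h) and SAUR23, whose probe set may also match related genes.

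The 12 largest falls under the rule for named genes had values at 0.5 h of -1.53 (IAA29) to 0.21 (LPA66) against the early 0 h arrays with lincomycin, and 0 of the 12 were called higher there, where with a background of 0.497% a count of 0 says nothing about them. CO, a dim gene called lower in the step, was not called at 0.5 h against 0 h with lincomycin (adjusted p = 0.069) or without (adjusted p = 0.11). No size is given for these comparisons, since its signals at 0 h lay near the floor. The comparison with lincomycin and the step share the arrays of 0.5 h. Without lincomycin, on other arrays, 13 of the 59 falls were called lower at 0.5 h than at 0 h (background 0.888%). Of the rises, 42 of 142 were called higher at 0.5 h without lincomycin (background 0.866%). The fit pooled the spread of these other arrays with that of the step, so their calls were not independent of those in the step.

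Other lists had 0 genes called in the step with lincomycin. With 0.884% of all probe sets called, a 0 in lists of this size is near the background and is no result about their genes. These lists were the rapidly induced stress and elicitor regulators (0 of 37, median 0.0), calmodulin-like and touch genes (0 of 10, median 0.16), jasmonate genes (0 of 16, median 0.1), heat shock genes (0 of 25, median 0.11), oxidative and mitochondrial stress responders (0 of 13), ethylene (0 of 14), cytokinin (0 of 12) and defence genes (0 of 12). ZAT12, a zinc-finger factor of oxidative and light stress, read 604, 551, 459.9 and 468 at 0.5 h and 609.8, 616 and 824 at 1 h, a difference of 0.39 ± 0.17 (adjusted p = 0.43). ZAT10 (0.22 ± 0.18) and WRKY40 (0.11 ± 0.2), factors of the same early stress response, had overlapping groups. HSFA2, a heat shock factor, stayed between 22.2 and 94.4 on the 7 arrays. Genes induced by darkness and low sugar had 0 of 16 called, with 13 changes below 0 (57.0% of all probe sets) and a median of -0.22. SEN1, a senescence-associated gene of that list, read 7979, 4632, 5866 and 5612 and then 4008, 4237 and 3974, a difference of -0.54 ± 0.17 (adjusted p = 0.17). Of the families, WRKY (0 of 61), ERF (0 of 24) and XTH (0 of 33) had 0 called. GA2OX1 was the single called gene of 13 for gibberellin and brassinosteroid metabolism.

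The step without lincomycin, measured on 8 other arrays, had 708 probe sets called (3.11%), 349 higher and 359 lower. The fit pooled the spread of both treatments, so calls with and without lincomycin were not independent. The backgrounds, taken over all probe sets, were not matched for spread. Of the 201 called with lincomycin, 109 were also called without it in the same direction, or 54.2% of the calls with lincomycin and 15.4% of those without. The 142 rises were above 0 without lincomycin in 135 cases (51.4% of all probe sets were), and 90 were called higher (background 1.53%), with a median of 0.56 beside 0.01 over all probe sets. All 16 rises and all 3 falls of both fits were called in the same direction without lincomycin. Of the 59 falls 48 lay below 0 (48.6% of all probe sets did), 19 were called lower (background 1.58%) and 1, SAUR23, was called higher. HY5 rose by 1.27 without lincomycin (from 582, 488, 519 and 455 to 1304, 1198, 1229.6 and 1189), SIG5 by 1.4, RUP1 by 1.35 and GI by 1.13. EXPA8 fell by 0.76, GH3.5 by 0.58 and BZIP61 by 1.17 on the log2 scale. The light-signalling list had 18 of 35 called higher and 2 lower without lincomycin, and the auxin and shade growth list 6 of 27 lower.

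**Figure D3:**
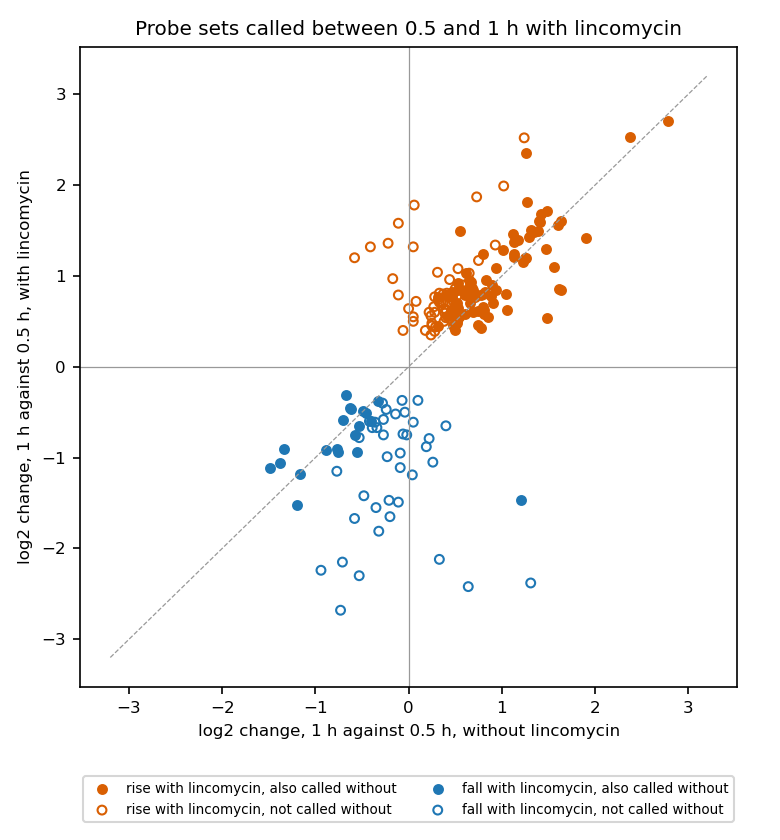
The 201 probe sets called between 0.5 and 1 h with lincomycin, with their log2 change with lincomycin (vertical axis) against that without it (horizontal axis); filled points were also called without lincomycin, and the dashed line marks equal change. Of the rises 135 of 142 lie to the right of 0, and the falls past -1.5 are mostly open points, not called without lincomycin. Apart from IAA29, these falls are of probe sets whose signal did not reach the median level. None of them was called in the test of the difference between the steps.

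The difference between the steps was tested directly, and 12 probe sets were called (0.0528%), 4 higher (0.0176%) and 8 lower (0.0352%) with lincomycin, with 1690 at an unadjusted p under 0.05. In the fit of the early arrays of each treatment 1 was called, AT5G59350, named after its values were seen (-0.16 with and 0.68 without lincomycin, difference -0.84 ± 0.16, limma adjusted p = 0.023 and in that fit 0.019), and in that of the 15 arrays compared limma called 0, with 1434 at an unadjusted p under 0.05. Leaving out 1 array gave 3 to 20 calls, with 3 without replicate 3 and 4 without replicate 4 at 0.5 h without lincomycin, 7 without replicate 1 at 1 h without lincomycin, 5 without replicate 2 and 20 without replicate 1 at 0.5 h with lincomycin. Because the sets of arrays with and without lincomycin differed in the spike-in signal, a difference of arrays and one of treatment in these values cannot be fully told apart.

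ARR5, a negative regulator of cytokinin responses, read 1098, 829, 1350 and 1233 at 0.5 h and 896, 991 and 1183 at 1 h with lincomycin. Without it ARR5 read 2450.1, 2644, 3140.2 and 3002 at 0.5 h and 1166, 1461, 1452 and 1548 at 1 h. The gene therefore fell by 1.00 on the log2 scale without lincomycin, from a level above its 0 h arrays (1099 to 1348), and differed by -0.13 ± 0.12 with it, and the difference of 0.87 ± 0.17 was called (adjusted p = 0.023). MYB13, a MYB factor, read 236, 394, 279.6 and 179 and then 329.8, 376 and 429.6 with lincomycin, against 376, 321, 283 and 266 and then 1232, 1189.6, 1271 and 916 without it. The step was 0.52 with lincomycin and 1.89 without, a difference of -1.36 ± 0.26 (adjusted p = 0.023). In the log ratios that the authors deposited from a second processing, however, the step of MYB13 with lincomycin was 2.06. There its values against 0 h were 0.09 at 0.5 h and 2.14 at 1 h, so the small step with lincomycin was not seen in that processing. LSD1, a zinc-finger regulator of cell death, fell by 0.71 on the log2 scale without lincomycin and differed by -0.06 with it, where the 7 arrays lay between 1298 and 1687 (difference 0.65 ± 0.13, adjusted p = 0.023).

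The other genes named for a difference are known here by locus only. AT1G30260 read 378, 206, 304 and 178 and then 266, 377 and 277 with lincomycin, and 1446, 949, 1488 and 1385 and then 597, 593, 733 and 527 without it, a difference of 1.34 ± 0.27 (adjusted p = 0.031). Each array without lincomycin was above each array with it, at both times. AT3G48460 rose in both, by 0.54 with lincomycin (adjusted p = 0.0047, and 0.072 without replicate 2 at 1 h) and 1.49 without (difference -0.95 ± 0.15, adjusted p = 0.005), and of the 8 genes named it was the one whose difference was called whichever of the 15 arrays was left out. In the fit of the early arrays none of the 8 was called (adjusted p = 0.19 to 0.33). AT1G55960 had steps of 0.22 and 1.14 (difference -0.92, adjusted p = 0.022), and AT2G28200 of 0.0 and 0.88 (difference -0.87, adjusted p = 0.031). AT1G25375 fell with lincomycin (-0.65, adjusted p = 0.03) and not without it (0.4, adjusted p = 0.16), with a difference of -1.05 (adjusted p = 0.042). SAUR23 read 168, 118, 161 and 135 and then 20, 113 and 58.9 with lincomycin and 24.7, 60.1, 53.6 and 77.5 and then 99.7, 172, 117 and 92.8 without it, and the difference was called (adjusted p = 0.01, and 0.24 in the fit of the early arrays). No size is given for it, since the arrays of 1 h with lincomycin are at the dim end. Its fall with lincomycin is a bound (at least 0.9) and was not called without replicate 1 at 1 h (adjusted p = 0.33) or replicate 1 or 3 at 0.5 h (0.051 each), and the 0 h arrays of both treatments were higher, between 457 and 726.

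For several other genes the steps looked unlike without a difference past the threshold. ELIP2 rose by 2.16 without lincomycin, and the difference of -1.03 had an adjusted p of 0.51. ZAT10 rose by 0.98 without lincomycin (difference -0.75, adjusted p = 0.36) and ZAT12 by 0.73 (difference -0.34, adjusted p = 0.81). PSBS differed by 0.31 without lincomycin, where its signal was already 4216 to 4950.1 at 0.5 h against 755 to 1017 with lincomycin, and the difference of 0.73 had an adjusted p of 0.12. AT3G57020 rose by 0.55 without lincomycin, a difference of 0.94 (adjusted p = 0.096).

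The later course was read from the 4 h and 24 h arrays against the 0 h arrays 5 to 8. None of these enters the log2 change of the step, but all helped to estimate the spread in the fit that called it. The later calls used the same spread, so they were not independent of the calls in the step. The backgrounds, taken over all probe sets, were not matched for spread. At 4 h with lincomycin, 118 of the 142 rises were called higher (background 10.3%) and 1 lower, with a median of 1.48. At 24 h, 106 were called higher (background 13.1%) and 10 lower, with a median of 1.16. All 16 rises of both fits were called higher at 4 h, and 11 of them at 24 h, where 1 was called lower. SIG5 stood 3.59 above 0 h at 4 h and 3.6 at 24 h, RUP1 3.01 and 2.39, and ABCI20 3.23 and 2.1, so these genes were high at both times. GI (1.76 and 0.23), SMZ (1.37 and 0.16) and RHA2A (0.81 and -0.14) were called at 4 h and not at 24 h, and ELF4 (1.25 and -0.41) was called lower at 24 h. HY5 stood 3.13 above its 0 h arrays at 1 h, 2.08 at 4 h and 0.94 at 24 h, each against the 0 h arrays of its own set. The flavonoid list, with 4 genes called in the step, had 23 of 29 called higher at 4 h, among them F3H at 5.08 and CHS at 3.78, and the heat shock list, with 0 called in the step, had 17 of 25.

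Of the 59 falls 22 were called lower at 4 h (background 11.5%) and 28 at 24 h (background 17.4%), with 0 and 1 called higher. EXPA8 (-0.85 and -1.48) and GH3.5 (-1.02 and -1.24) were called lower at both times. BZIP61 was not called at either (0.31 and -0.07), although it lay 1.49 below its 0 h arrays at 1 h on the log2 scale. IAA29 stood at -2.9 at 4 h and -1.9 at 24 h.

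**Figure D4:**
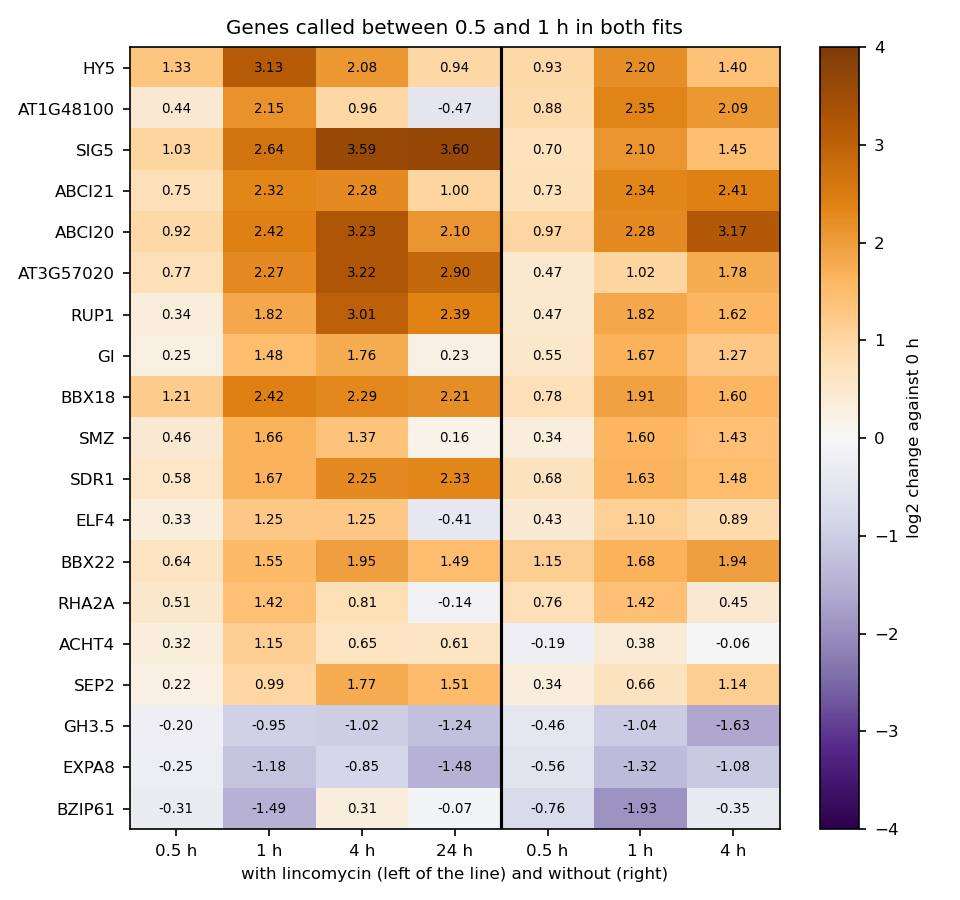
Log2 change against 0 h of the 19 genes called in both fits, with lincomycin at 0.5, 1, 4 and 24 h and without it at 0.5, 1 and 4 h; 0.5 and 1 h are set against the 0 h arrays 1 to 4 and the later times against 5 to 8. The 16 rises are positive at 1 and 4 h with lincomycin, while GI, ELF4, SMZ, RHA2A and AT1G48100 lie near or below 0 at 24 h, and BZIP61 returns from -1.49 at 1 h to 0.31 at 4 h.

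The authors' deposited table gives log ratios of each time against 0 h from a second processing of the data, and its value at 1 h minus that at 0.5 h is a second reading of the same arrays. Of 136 rises with an entry in the authors' deposited table, 133 were above 0, with a median of 0.96, against 0.8 for the same probe sets in the signals. Of the falls 53 of 55 were below 0 in the authors' deposited table, but their median was -0.24 against -0.79. The falls of both fits kept their size there, with -1.33 for EXPA8, -1.32 for BZIP61 and -1.01 for GH3.5 in the authors' deposited table. Several other falls nearly vanished in the authors' deposited table, with -0.17 for IAA29, -0.03 for TPPH, -0.08 for LPA66 and -0.01 for CO. Rises of named genes were mostly as large or larger in the authors' deposited table, with 3.68 for ELIP1, 2.8 for HY5, 2.75 for SIG5 and 2.17 for PSBS.

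**Figure D5:**
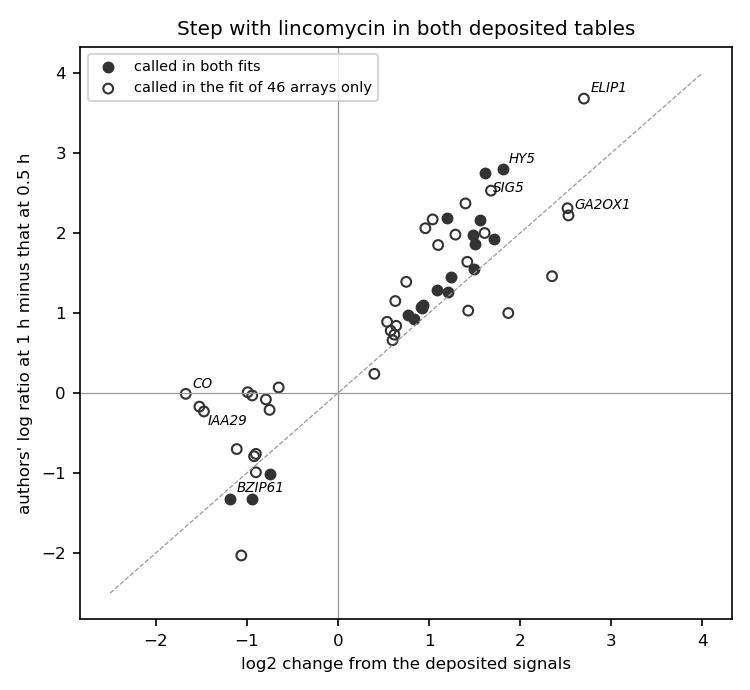
Step with lincomycin for the named genes called in the fit of 46 arrays: log2 change in the deposited signals (horizontal axis) against the authors' log ratio at 1 h minus that at 0.5 h (vertical axis); filled points were called in both fits and the dashed line marks equal values. The rises lie on both sides of the line, HY5 and SIG5 above it and AT3G52740 (2.35 against 1.46) and LEA4-5 (1.87 against 1.0) below it, and of the falls IAA29 and CO lie near 0 on the vertical axis, at -0.17 and -0.01.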

How the data were processed

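RNA of whole seedlings was hybridized to ATH1 arrays. The deposited table of signal intensities, linear values per probe set and array, had each array scaled to a 2% trimmed mean of 500.0. Per the submitters' processing notes, MAS5 and GCRMA were used, with no role given for either. A further deposited table holds, per the file headers, the authors' log ratios, whose base is not stated and which were read as log2 (slope of 0.95 on the signals' log2 change at 4 h), and a p-value column that was not used. Depth has no counterpart on arrays, whose number limits the precision.

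Values were taken as log2(signal + 1). In R 4.3.3 with limma 3.58.1, 46 arrays in 12 cells were fitted (4 arrays of each 0 h group go with 0.5 and 1 h, and the others with 4 and 24 h; array 4 at 24 h without lincomycin stands apart and was left out). Benjamini-Hochberg adjustment ran over the 22746 probe sets that are no controls, two-sided, with calls at an adjusted p under 0.05. Python 3.11.15 did the rest, and the fits were tested on simulated data. Probe sets were named where the platform annotation and the authors' table gave 1 gene (21463), with symbols from the TAIR10.1 annotation (listed genes by their list name where that annotation gives it for the locus, 455 of 478), and a gene with several was represented by the brightest. Where the dimmer group's mean lay at or below its arrays' mean first quartile, the change is given as a bound.

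Named genes are the 12 largest called rises and 12 largest called falls with 1 gene, groups without overlap and a level reaching the median (207), up to 3 called members of each of 25 lists and 13 families and the largest one not called, up to 5 differences between the steps each way, and fixed genes. The members and lists were chosen with earlier results of these data known. The alternatives tried were the arrays in the fit, weights, normalization, pseudocount, dim probe sets, intensity trend, a replicate block and leaving out 1 array.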

Additional observations from a re-analysis of the deposited data

Results flagged for a closer look

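Among 312 groups of 4 arrays examined for the named genes, 10 held 1 array far from the other 3, beside about 1 in 20 that chance gives. With lincomycin at 0.5 h these were ELIP1 on replicate 1 (27.1, against 253, 251 and 193), SIG5 on replicate 4 (763, against 996, 952 and 992) and MYB12 on replicate 2 (70.6, against 120.1, 116 and 127). Without lincomycin at 0.5 h, AT3G56290 was high on replicate 1 (1257, against 934, 909 and 880.3) and BZIP61 on replicate 3 (352, against 269.5, 265 and 259). RRTF1, a dim ethylene response factor, was low on replicate 3 (15.9, against 29.9, 30.9 and 31.7), and AT1G30260 on replicate 2 (949, against 1446, 1488 and 1385). Without lincomycin at 1 h, VTC2 was low on replicate 3 (5513, against 6083, 6017 and 6050.0) and ZAT10 on replicate 4 (362, against 463, 473 and 462), while AT4G12410, a SAUR gene, was high on replicate 2 (601, against 374, 376 and 346).

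The step differed between seedlings with and without lincomycin by the test of the difference in the 8 genes named for it, none of which was called in the fit of the early arrays (limma adjusted p = 0.19 to 0.33). It was higher with lincomycin for AT1G30260 (1.34), ARR5 (0.87) and LSD1 (0.65), and lower for MYB13 (-1.36), AT1G25375 (-1.05), AT3G48460 (-0.95), AT1G55960 (-0.92) and AT2G28200 (-0.87), all on the log2 scale. For MYB13 the authors' deposited ratios gave a step with lincomycin of 2.06, which the signals did not show. The step of SAUR23, a dim gene named with its family, was also called lower with than without lincomycin (adjusted p = 0.01, and 0.24 in the fit of the early arrays).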

How the results depend on the processing

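Of the 201 calls with lincomycin, 74 remained with all 47 arrays, 19 with the early arrays of the treatment and 130 with weights per array set (chosen after seeing the data), and the 7 arrays alone gave 0 (1238 at an unadjusted p under 0.05). Without lincomycin the 708 calls became 329 with all 47 arrays, 314 with the 8 arrays alone and 1065 with array weights. The 12 differences became 3 with all 47 arrays, 1 with the early arrays, 0 with the arrays compared (1434 at an unadjusted p under 0.05) and 21 with an intensity trend. Leaving out 1 array gave 150 to 235 calls with lincomycin, 476 to 644 without, and 3 to 20 differences. Same-numbered arrays of 0.5 and 1 h correlated in their deviations at 0.118, 0.057 and 0.148 with lincomycin, not all above 0.1, so the numbers were not taken as pairs. With a replicate block limma called 0 probe sets in each comparison (1685, 2665 and 1706 at an unadjusted p under 0.05). Of 54 named genes called in the step, 54 remained called under quantile normalization and a pseudocount of 16, and 34 with all 47 arrays. In the authors' deposited ratios the sign turned for AT3G61900 (0.01) and AT1G25375 (0.07), and for genes not called: CML38 and LOX4 (-0.01 each), TT8 (-0.04), GA2OX8 (-0.03), ERF1 (-0.02), CML41 (0.03), WRKY40 and HSFA2 (-0.02 each). CHS was 0.2 and AT2G28200 -0.01 with the replicate block. Without 1 array CHS ran from -0.41 to 0.2, WRKY40 from -0.03 to 0.26, HSFA2 from -0.12 to 0.9, LSD1 from -0.11 to 0.01 and AT2G28200 from -0.13 to 0.12. The cause of these shifts was not tested, beyond the fewer arrays in some fits. Dim signals limit the size of a change.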
